A study of Homo sapiens with 9 samples.

Results

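A set of 37 genes of inflammatory cytokines and of the NF-kappaB system was followed across 9 RNA-seq libraries of MDA-MB-231-D3H2LN cells, derived from MDA-MB-231, a line of human breast cancer. The members were the rows of the count tables whose gene symbol was one of the 37 names. All 37 were found among the 56505 symbols in the tables, 31961 of which were counted at least once. Of the 37, 31 had enough counts to be tested among 16921 genes, and 6 did not (TNF, CXCL5, CCL2, CCL5, CCL20 and SAA2). Wild-type cells, described in the labels as expressing JAG1, had 3 libraries, and JAG1 knockout clones 1 and 2 had 3 libraries each. For the knockouts, Cas9 protein with guides to separate places of one JAG1 exon was transfected, and single cells were grown into homozygous lines, so each clone is 1 line. Cells of all groups were grown in DMEM with high glucose and serum from fetal calves, and the labels name no cytokine treatment. The labels do not say whether the replicates were separate cultures, and p-values therefore cover the spread between these libraries only, which may be technical.

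NF-kappaB is a family of dimeric transcription factors built from the products of NFKB1, NFKB2, RELA, RELB and REL. In resting cells, inhibitors of the IkappaB family hold the dimers in the cytoplasm. Signals from receptors for tumour necrosis factor, interleukin 1 or microbial products activate the IkappaB kinase, the inhibitor is degraded, and the dimers enter the nucleus. There they bind kappaB sites in the promoters of cytokine, chemokine and adhesion genes, and of their own inhibitors, which close a feedback loop. MDA-MB-231 cells are known for secreting interleukins 6 and 8 and for a basal NF-kappaB activity. JAG1 encodes a ligand of the Notch receptors. The comparisons ask which of these transcripts differed in cells whose JAG1 gene had been cut.

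Promoter sequence shows which members carry the letters that NF-kappaB dimers are known to bind. RefSeq promoter windows (GRCh38.p14, 250 bases before to 50 after each start) were found for 27 of the 37 members. The kappaB consensus, a run of 10 letters searched on both strands by its name, had a match in a window of 14 of these 27 members (51.9%) and in 13.3% of 27305 genes. Counted by window, it was in 44.4% of 36 member windows and in 11.3% of 35116 windows of the same length. The GRO chemokine genes and CXCL5 share the core of the match within one cluster on chromosome 4, while the NF-kappaB subunit and inhibitor genes hold their own versions. Stretches of 30 bases are given 5′ to 3′ on the strand of the gene, with the match in capitals.

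CXCL1, chr4:73869305-73869334, plus strand: tggaactccgGGAATTTCCCtggcccgggg
CXCL2, chr4:74099253-74099282, minus strand: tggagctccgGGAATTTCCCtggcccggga
CXCL3, chr4:74038748-74038777, minus strand: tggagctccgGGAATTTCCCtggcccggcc
CXCL5, chr4:73998748-73998777, minus strand: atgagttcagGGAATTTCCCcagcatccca
IL6, chr7:22727117-22727146, plus strand: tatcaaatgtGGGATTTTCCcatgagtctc
NFKB1, chr4:102501300-102501329, plus strand: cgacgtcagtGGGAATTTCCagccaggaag
NFKB2, chr10:102395674-102395703, plus strand: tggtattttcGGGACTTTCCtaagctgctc
NFKBIA, chr14:35404811-35404840, minus strand: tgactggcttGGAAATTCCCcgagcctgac
NFKBIZ, chr3:101827757-101827786, plus strand: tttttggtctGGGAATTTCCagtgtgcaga
TNFAIP3, chr6:137867194-137867223, plus strand: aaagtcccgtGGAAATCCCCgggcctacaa

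ICAM1 and TNFSF10, the members lower in both clones by the test below, had no exact match in their windows. ICAM1 held a sequence 1 letter off the consensus 187 bases before the RefSeq start. A window with at most 1 letter off is common, at 69.4% of all windows, so that match describes the sequence only. For TNFSF10 the 173 bases that lie before the gene's start in both RefSeq and the deposited tables are shown, and no letters were capitalised because the consensus had no match in them.

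ICAM1, chr19:10270923-10270952, plus strand: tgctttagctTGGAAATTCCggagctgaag
TNFSF10, chr3:172523508-172523680, minus strand: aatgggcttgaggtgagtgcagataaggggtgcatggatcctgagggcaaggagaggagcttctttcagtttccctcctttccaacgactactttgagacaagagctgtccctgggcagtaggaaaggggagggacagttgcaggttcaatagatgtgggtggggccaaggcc

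Of the 8 members that differed from wild type in either clone, 7 had a window, and 2 of them (NFKB1 and NFKBIZ) held the consensus. The CCL2, CCL5, CSF1, CSF3, IL18, LIF, NFKBIE, RELB, SAA1 and SAA2 promoters were not in the sequence table.

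Library totals ran from 16890890 to 22456164 counts, and the 37 members took 0.0448 to 0.0791% of them. JAG1 was at 196 CPM (the usual library-size-normalised count, here on TMM-scaled library sizes) in wild-type cells against 94.5 for clone 1 and 66.9 for clone 2, and was lower in both clones by edgeR (adjusted p = 0.00312 and 0.00013). Vimentin, CD44, AXL and caveolin 1, high in this mesenchymal line, summed to 3371 to 4967 CPM in wild-type libraries, 3372 to 4122 in those of clone 1 and 4996 to 6560 in those of clone 2, where all were above the other groups. The hormone receptor and epithelial genes ESR1, PGR, CDH1 and EPCAM summed to 18.4 to 19.8, 23.4 to 26.7 and 12.1 to 13.9 CPM in the same order, without overlap. By edgeR, VIM was higher in clone 2 than in clone 1 (log2 difference 1.22, adjusted p = 0.000394) and EPCAM lower (−0.98, adjusted p = 0.000452). VIM was also higher in clone 2 than in wild type by edgeR (0.69, adjusted p = 0.0491). This call held in 3 of the 9 fits that each drop 1 library, and not in that without wild-type replicate 2. It was also lost with RLE size factors and with only the 6 libraries compared. CD3E, a T cell gene, had 0 counts in all libraries, and 8 leukocyte markers summed to 5.18 to 7.97 CPM in wild type, 6.46 to 10.1 in clone 1 and 3.04 to 7.05 in clone 2. CD14, a monocyte marker, was lower in clone 2 (log2 fold change −2.93, adjusted p = 0.00938 by edgeR), though not without wild-type replicate 2 (0.0912). The 4 endothelial markers summed to 3.65 to 6.46 CPM over all libraries. The fibroblast markers PDGFRA, PDGFRB, DCN and LUM summed to 10.9 to 24.9 CPM in wild type, 10.9 to 14.7 in clone 1 and 2.29 to 4.46 in clone 2, where LUM was lower (log2 fold change −4.86, adjusted p = 3.16e-05 by edgeR). Mitochondrially encoded mRNA took 2.62 ± 1.01% of wild-type counts, 3.60 ± 1.31% of those of clone 1 and 1.21 ± 0.506% of those of clone 2 (SD, n = 3 each). The part of these values in the results was not tested.

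One wild-type library stood apart for these genes. Wild-type replicate 2 was the highest of the 3 wild-type libraries for 23 of the 31 tested members (74.2%), against 33.2% of all tested genes. Its members lay a median of 0.42 above the other wild-type libraries on the log2 scale, where the median of all genes was 0.01. It also had the highest mitochondrial share of its group, 3.67% against 2.52 and 1.66%. Member calls that ended without it are named beside each result, with the fold changes that it moved most. The plot of members by library shows this column.

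**Figure D1:**
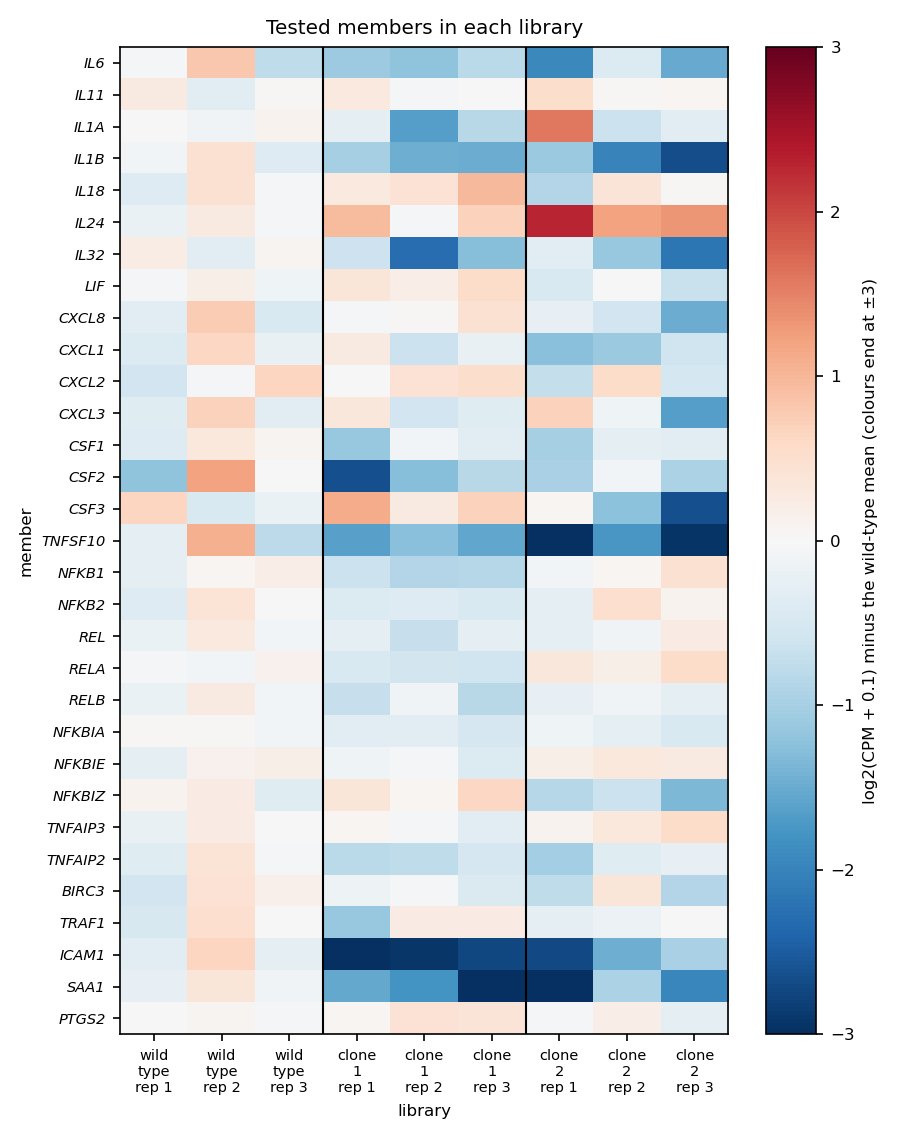
Each cell is log2(CPM + 0.1) of 1 tested member (rows, by role) in 1 library (columns) minus the wild-type mean, with colours ending at ±3. Wild-type replicate 2 is the highest wild-type library in 23 of 31 rows. The rows of ICAM1, TNFSF10, IL1B and SAA1 are below the wild-type mean in all 6 clone libraries, as are others, such as NFKBIA, TNFAIP2, IL32, IL6 and RELB.

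Against wild type, clone 1 had 5 of 31 tested members called by edgeR at an adjusted p under 0.05, all lower: ICAM1, TNFSF10, NFKB1, RELA and SAA1. Over all tested genes 5.51% were called, 1.41% higher and 4.1% lower. Clone 2 had 5 of 31 called, with IL1B, TNFSF10, NFKBIZ and ICAM1 lower and IL24 higher, where 5.96% of all genes were called, 3.21% higher and 2.75% lower. ICAM1 and TNFSF10 were thus called lower in each clone, and the 2 comparisons share their wild-type libraries. In bulk samples, fewer cells with a transcript and less of it per cell cannot be told apart. The median log2 fold change of the 31 members was −0.39 in clone 1, with 22 below 0 (71.0%), against −0.02 and 51.5% over all genes. In clone 2 it was −0.28, with 23 below 0 (74.2%), against 0.00 and 49.9% over all genes. At an unadjusted p under 0.05 there were 13 members in clone 1 and 13 in clone 2 (41.9% each), against 21.8% and 24.2% of all genes. Without wild-type replicate 2 the calls came down to ICAM1 alone in clone 1 and to IL24 and TNFSF10 in clone 2, with medians of −0.21 and −0.15. Over all genes the shares called also came down, to 2.48% in clone 1 and 1.35% in clone 2. The clone 1 count was also 1 without clone 1 replicate 2 or 3 (1.88% and 1.15% of all genes). It was 2 without wild-type replicate 3 or clone 1 replicate 1 (1.57% and 2.19%). The clone 2 count was 1 without clone 2 replicate 3 (1.34% of all genes) and 2 without wild-type replicate 1 (1.69%). With the replicate number as a block in the fit, clone 2 had 10 members called, where 15.95% of all genes were. In clone 1 the block called CSF1, CSF2, IL18, IL1B, IL32 and TNFAIP2 besides the 5 above, where 13.7% of all genes were. Deviations from the group means in same-numbered libraries of clone 1 and wild type correlated at 0.245, 0.0825 and −0.0965. These values do not settle whether the libraries were paired.

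**Figure D2:**
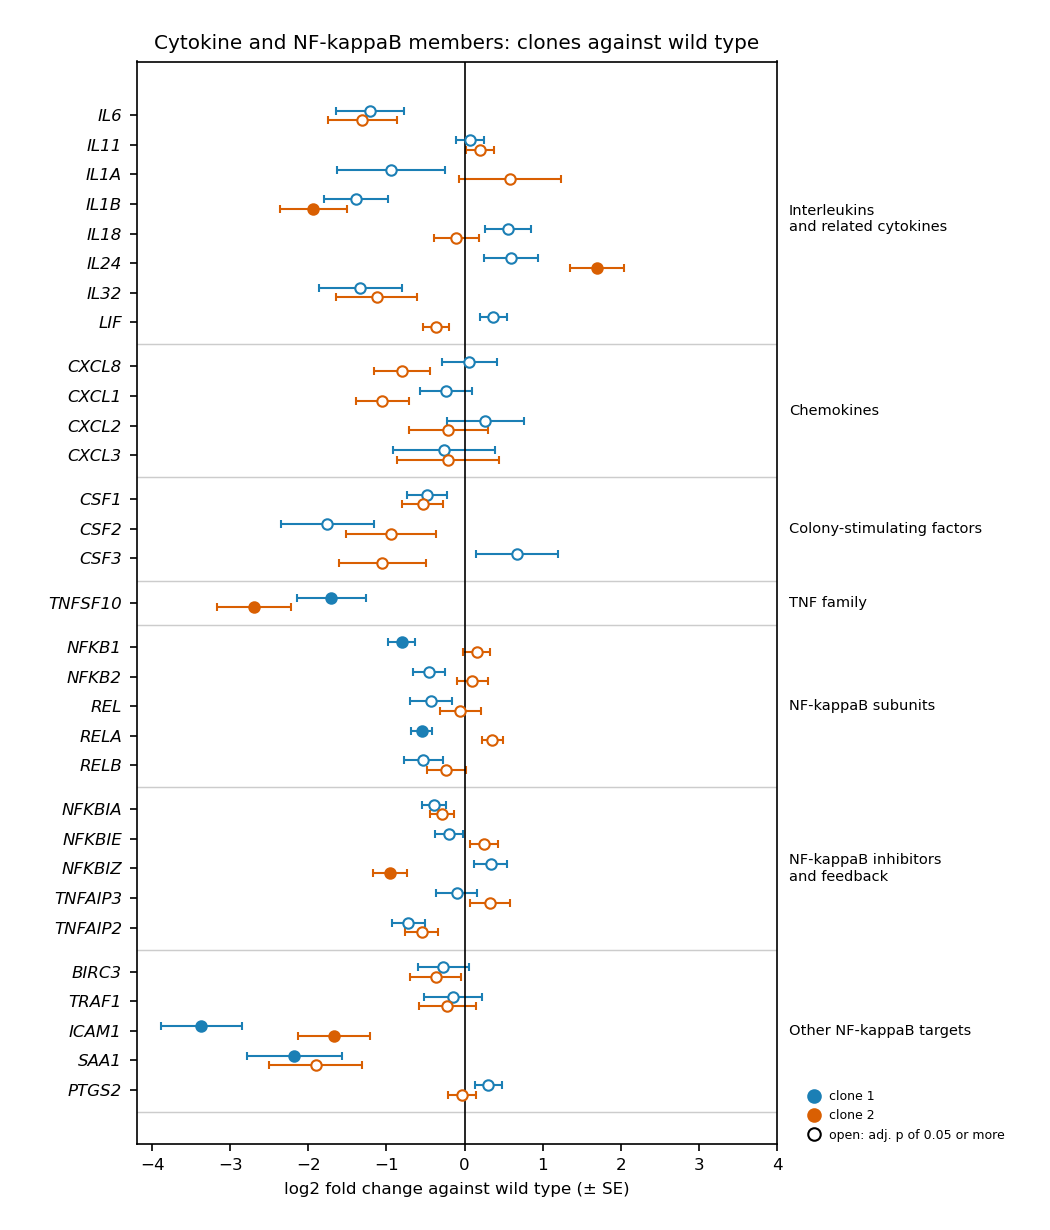
Log2 fold change against wild type (x axis) with its SE for the 31 tested members, by role, in clone 1 (blue) and clone 2 (orange), filled where the adjusted p was under 0.05. ICAM1 and TNFSF10 are filled and left of 0 in both clones, and IL24 in clone 2 is the one filled point right of 0.

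The interleukins and related cytokines held 8 members, all tested, of which 0 were called in clone 1 by edgeR and 2 in clone 2. In clone 1, 4 had an unadjusted p under 0.05 by edgeR, as had 21.8% of all genes. DESeq2 and limma-voom each called IL1B there, and 8.74% and 5.58% of all genes. IL1B encodes interleukin 1 beta, a cytokine that itself activates NF-kappaB. It lay on chromosome 2 (112829751 to 112836903, minus strand). IL1B stood at 4.18, 6.09 and 3.37 CPM in wild-type replicates 1 to 3, at 2.18, 1.52 and 1.504 in clone 1, and at 1.98, 1.017 and 0.617 in clone 2. Every clone library was below every wild-type library. In clone 2 its log2 fold change was −1.94 (SE 0.43, adjusted p = 0.0166), and in clone 1 its fold change of −1.39 (SE 0.41) did not pass (adjusted p = 0.0606). The clone 1 value passed in 6 of 8 other settings, the replicate block among them (−1.40, adjusted p = 0.0157). With wild-type replicate 2 or clone 2 replicate 3 removed, IL1B no longer passed in clone 2 (adjusted p at most 0.0924). Its relative IL1A was at 0.238 to 3.09 CPM over the 9 libraries and did not pass in either clone (−0.94 and 0.58). Clone 2 replicate 1 alone held 3.09 CPM, and the clone 2 value of IL1A was −0.51 without it.

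IL24, a cytokine of the interleukin 10 family, moved the other way. It lay on chromosome 1 (206897443 to 206904139, plus strand). IL24 stood at 2.19, 3.09 and 2.41 CPM in wild type, at 5.02, 2.47 and 4.18 in clone 1, and at 12.7, 5.96 and 6.45 in clone 2. All clone 2 libraries were above all others, while clone 1 overlapped wild type. In clone 2 it rose by 1.70 (SE 0.35, adjusted p = 0.0117), with the clone 1 value at 0.60 (SE 0.35, adjusted p = 0.336). Of the 9 fits that each drop 1 library, the one without wild-type replicate 1 ended the clone 2 call (adjusted p = 0.0525). Clone 2 also exceeded clone 1 (log2 difference 1.10, SE 0.34, adjusted p = 0.0206). This call ended when clone 1 replicate 2 or 3, or clone 2 replicate 1, was dropped (adjusted p at most 0.126).

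LIF encodes leukemia inhibitory factor, which signals through the gp130 receptor chain as IL6 and IL11 do. Its gene lay on chromosome 22 (30240447 to 30246851, minus strand). LIF stood at 70.2, 81.0 and 65.2 CPM in wild type, 92.4, 82.4 and 105 in clone 1, and 52.0, 70.9 and 45.3 in clone 2. Clone 1 was above every library of the other groups, and clone 2 overlapped wild type. Neither clone passed against wild type (0.37, SE 0.17, adjusted p = 0.207; −0.36, SE 0.17, adjusted p = 0.198), but clone 2 was lower than clone 1 (log2 difference −0.73, SE 0.17, adjusted p = 0.0038), and this held in all 9 fits with a library left out. IL6 was at 4.57, 8.42 and 2.77 CPM in wild type, 2.18, 2.00 and 2.67 in clone 1, and 1.18, 3.53 and 1.61 in clone 2. Its fold changes of −1.21 and −1.31 missed the threshold (SE 0.44 each, adjusted p = 0.117 and 0.0839). The clone 2 value passed with the replicate block (−1.31, adjusted p = 0.0159), DESeq2 and no low-count filter. With the block and the GC and length correction both clones passed, and clone 1 also with no low-count filter. Without wild-type replicate 2 the values of IL6 were −0.67 and −0.81. IL6 shares 20.7% of its exon bases with a gene on the opposite strand, and strand use in counting is not known, so its counts are uncertain. IL11, a bone-acting cytokine of the same family, was at 38.5 to 68.4 CPM throughout, with values of 0.07 and 0.20. IL18 ran from 9.15 to 33.4 CPM (0.56 and −0.10) and IL32 from 0.475 to 3.16 CPM (−1.33, SE 0.53, and −1.13, SE 0.52), and neither passed. With the replicate block both passed in clone 1 (IL18 at 0.59, adjusted p = 0.0408, and IL32 at −1.45, adjusted p = 0.0438).

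Among the chemokines, which attract leukocytes, 4 of 8 could be tested, and 0 were called against wild type by edgeR. At an unadjusted p under 0.05 there were 0 in clone 1 and 2 in clone 2, against 21.8% and 24.2% of all genes. DESeq2 called 0 of them in clone 1 and CXCL1 in clone 2, and 8.74% and 10.7% of all genes. CXCL8 encodes interleukin 8, a neutrophil attractant. CXCL8 stood at 24.8, 52.5 and 22.3 CPM in wild type, 29.99, 31.3 and 42.5 in clone 1, and 26.0, 20.4 and 10.9 in clone 2. Its values of 0.06 (SE 0.35) and −0.80 (SE 0.36, adjusted p = 0.199) did not pass, and both clones overlapped wild type. They were 0.57 and −0.34 without wild-type replicate 2. CXCL1, another neutrophil attractant, stood at 4.57, 9.48 and 5.18 CPM in wild type, 7.30, 3.85 and 5.23 in clone 1, and 2.47, 2.76 and 3.99 in clone 2. Clone 2 lay below wild type in every library, with a value of −1.06 (SE 0.34, adjusted p = 0.0733) that passed with the replicate block (−1.05, adjusted p = 0.0299). With no low-count filter, CXCL1 and CXCL8 passed in clone 2. CXCL2 (0.742 to 2.06 CPM) and CXCL3 (0.237 to 1.61 CPM) were low in all libraries and did not pass. CXCL1, CXCL2 and CXCL3 are near-identical copies, so reads may have been split between them and their counts are uncertain. In a window of 5 Mb on either side, the 45 to 47 tested neighbours of these 4 genes on chromosome 4 had a median of −0.14 in clone 1 and −0.31 to −0.40 in clone 2.

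The other chemokines were near the limit of detection. CXCL5 had 0, 1 and 2 counts summed over the 3 libraries of wild type, clone 1 and clone 2. The monocyte attractant CCL2 had 4, 0 and 6, CCL5 had 5, 5 and 0, and CCL20 had 6, 1 and 0. A count of 0 allows a level of up to 0.0480 CPM for wild type, 0.0541 for clone 1 and 0.0482 for clone 2 (3 counts over the summed libraries). Without a filter on low counts, 0 of these were called by edgeR in any comparison (0 at an unadjusted p under 0.05).

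Colony-stimulating factors drive the growth of myeloid cells. Of the 3 members, 0 were called against wild type by edgeR, DESeq2 or limma-voom. CSF2 in clone 1 had an unadjusted p under 0.05 by edgeR, as had 21.8% of all genes. CSF1, the macrophage factor, stood at 19.1 to 52.7 CPM over all libraries, with values of −0.48 and −0.54 (SE 0.26 each). Both passed with the replicate block (−0.51, adjusted p = 0.0134, and −0.54, adjusted p = 0.00837), and that of clone 2 also with no low-count filter. CSF2, or GM-CSF, stood at 3.79, 20.6 and 8.80 CPM in wild type, 1.35, 3.57 and 4.96 in clone 1, and 4.45, 8.33 and 4.51 in clone 2. The wild-type libraries spanned most of the range, and values of −1.76 (SE 0.60, adjusted p = 0.117) and −0.94 (SE 0.57, adjusted p = 0.35) did not pass. The clone 1 value of CSF2 passed without wild-type replicate 1 (adjusted p = 0.0211) and with the replicate block (−1.61, adjusted p = 0.00269). Without wild-type replicate 2 the values of CSF2 were −0.91 and −0.14. CSF3, or G-CSF, lay on chromosome 17 (40015361 to 40017813, plus strand). It stood at 3.69, 1.65 and 2.01 CPM in wild type, 5.13, 2.81 and 3.79 in clone 1, and 2.41, 0.920 and 0.285 in clone 2. Every clone 2 library was below every clone 1 library, and both overlapped wild type. CSF3 was lower in clone 2 by the direct test (log2 difference −1.73, SE 0.56, adjusted p = 0.0262). Dropping clone 1 replicate 1 or 3, or clone 2 replicate 2 or 3, ended this call (adjusted p at most 0.0858), and without clone 2 replicate 1 the difference was −2.69.

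In the tumour necrosis factor family, TNF itself had 0 counts in all 9 libraries. TNFSF10 encodes TRAIL, a ligand of death receptors. It lay on chromosome 3 (172505508 to 172523507, minus strand). TNFSF10 stood at 11.4, 28.9 and 7.99 CPM in wild type, 4.402, 5.75 and 4.62 in clone 1, and 1.61, 4.07 and 1.71 in clone 2. The 3 groups did not overlap, with wild type highest and clone 2 lowest. Its log2 fold change was −1.71 in clone 1 (SE 0.44, adjusted p = 0.0416) and −2.70 in clone 2 (SE 0.47, adjusted p = 0.00644). The clone 1 call was lost with limma-voom and with a fit of only the 6 libraries compared (adjusted p of up to 0.0808), and without wild-type replicate 2, any 1 clone 1 library, or clone 2 replicate 1 or 3 (up to 0.161). For clone 2, 1 of the 9 fits that drop a library ended the call, that without clone 2 replicate 3 (adjusted p = 0.0731). Without wild-type replicate 2 the values were −0.95 and −1.99, and without clone 2 replicate 2 that of clone 2 was −3.29. The difference between the clones did not pass by edgeR (−0.99, SE 0.47, adjusted p = 0.119). It passed in 5 of 8 other settings, those with no low-count filter, DESeq2, only the 6 libraries compared, and the block without and with the GC and length correction (adjusted p from 0.00206), and without wild-type replicate 2 or clone 2 replicate 2 (from 0.0231). The 24 tested neighbours within 5 Mb had medians of 0.06 and 0.08.

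Of the 5 genes of NF-kappaB subunits, NFKB1 and RELA were called lower in clone 1. All 5 values there were below 0 (median −0.53). In clone 2, 0 were called by edgeR, DESeq2 or limma-voom (median 0.10). RELA was higher there at an unadjusted p under 0.05, where 24.2% of all genes had one in either direction. NFKB1 encodes p105, the precursor of p50. It lay on chromosome 4 (102501329 to 102617302, plus strand), and its promoter stretch above holds the consensus. NFKB1 stood at 32.3, 40.0 and 44.6 CPM in wild type, 24.6, 20.9 and 21.4 in clone 1, and 36.3, 40.2 and 53.4 in clone 2. Clone 1 was below every other library, and clone 2 overlapped wild type. NFKB1 fell by 0.80 in clone 1 (SE 0.17, adjusted p = 0.015), while the clone 2 value was 0.15 (SE 0.17, adjusted p = 0.624). Dropping replicate 2 or 3 of wild type or of clone 1 ended the clone 1 call of NFKB1 (adjusted p at most 0.0954). The 34 tested neighbours within 5 Mb had a median of −0.17 in clone 1 and −0.39 in clone 2.

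RELA encodes p65, the subunit with the main transactivation domain, and lay on chromosome 11 (65653596 to 65663094, minus strand). RELA stood at 76.7, 75.0 and 86.7 CPM in wild type, 57.4, 53.7 and 52.0 in clone 1, and 100.1, 89.3 and 115 in clone 2. The 3 groups did not overlap, with clone 1 lowest and clone 2 highest. It fell by 0.55 in clone 1 (SE 0.14, adjusted p = 0.03), and the clone 2 value of 0.35 (SE 0.14) did not pass (adjusted p = 0.125). The clone 1 call of RELA ended when GC content and length were corrected for (adjusted p = 0.0868), and without wild-type replicate 2 or 3 or any 1 clone 1 library (up to 0.16). Between the clones, the test of the difference passed for RELA (0.90, SE 0.14, adjusted p = 0.000235), NFKB1 (0.96, SE 0.17, adjusted p = 0.000776) and NFKB2 (0.55, SE 0.20, adjusted p = 0.0463). RELA and NFKB1 kept those calls in all 9 fits with a library left out.

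NFKB2 encodes p100, the precursor of p52 in the noncanonical pathway, and lay on chromosome 10 (102394110 to 102402529, plus strand). NFKB2 stood at 44.1, 76.5 and 57.0 CPM in wild type, 43.3, 44.3 and 42.0 in clone 1, and 46.9, 81.5 and 62.0 in clone 2. Wild type and clone 2 covered the same range, and replicate 2 was highest in both. Its call between the clones was lost with RLE size factors, DESeq2 and limma-voom (adjusted p of up to 0.0608), and without wild-type replicate 3, any 1 clone 1 library, or clone 2 replicate 2 or 3 (up to 0.281). Its 102 neighbours within 5 Mb had a median of 0.37 in the same comparison. REL, which encodes c-Rel, was at 3.38 to 6.73 CPM (−0.43 and −0.05), and RELB, the partner of p52, at 4.34 to 9.52 CPM (−0.53 and −0.23), without passing. REL shares 50.7% of its exon bases with another gene on the same strand in the tables, so its counts are uncertain.

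The inhibitors and feedback genes were grouped with TNFAIP2, an induced gene. Of these 5, 0 were called in clone 1 by edgeR and 1 in clone 2. In clone 1, 2 had an unadjusted p under 0.05 (NFKBIA and TNFAIP2), as had 21.8% of all genes. DESeq2 called TNFAIP2 there and limma-voom 0, and they called 8.74% and 5.58% of all genes. NFKBIZ encodes IkappaB-zeta, a nuclear member of the inhibitor family that is needed for induction of some secondary targets, and lay on chromosome 3 (101827991 to 101861022, plus strand). NFKBIZ stood at 23.3, 25.7 and 16.6 CPM in wild type, 27.7, 22.4 and 33.0 in clone 1, and 11.8, 13.8 and 8.40 in clone 2. Clone 2 was below every other library. NFKBIZ fell by 0.95 in clone 2 (SE 0.22, adjusted p = 0.0207), with 0.34 in clone 1 (SE 0.21, adjusted p = 0.37), and the clones differed (log2 difference −1.29, SE 0.22, adjusted p = 0.000524). Without wild-type replicate 1 or 2, or clone 2 replicate 3, the call against wild type ended (adjusted p at most 0.106), while the call between the clones held in all 9 such fits.

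NFKBIA encodes IkappaB-alpha, the main cytoplasmic inhibitor and an early target of NF-kappaB. NFKBIA stood at 25.6, 25.6 and 23.7 CPM in wild type, 19.6, 20.0 and 17.7 in clone 1, and 22.8, 20.8 and 18.03 in clone 2. Each clone was below wild type in every library, but values of −0.39 (SE 0.15, adjusted p = 0.148) and −0.28 (SE 0.15, adjusted p = 0.268) did not pass. NFKBIE, which encodes IkappaB-epsilon, stood at 11.6 to 19.3 CPM with values of −0.20 and 0.25. TNFAIP3 encodes A20, an enzyme that edits ubiquitin chains and ends NF-kappaB signalling, and stood at 3.84 to 7.02 CPM with values of −0.10 and 0.32. TNFAIP2, a gene first found as induced by tumour necrosis factor, stood at 51.0, 87.3 and 63.3 CPM in wild type, 37.7, 38.6 and 46.4 in clone 1, and 32.3, 50.7 and 54.8 in clone 2. Clone 1 lay below wild type in every library, and clone 2 overlapped it. Its value of −0.72 in clone 1 (SE 0.21) had an adjusted p of 0.0589 by edgeR, and that of −0.55 in clone 2 (SE 0.21) one of 0.126. Both passed with the replicate block (−0.69, adjusted p = 0.00286, and −0.55, adjusted p = 0.0124) and with no low-count filter.

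The other targets held ICAM1, which had the largest fold change of the 31 tested members in clone 1. ICAM1 encodes an adhesion molecule that binds leukocyte integrins and is a classical NF-kappaB target. It lay on chromosome 19 (10270835 to 10286615, plus strand). ICAM1 stood at 3.59, 7.24 and 3.72 CPM in wild type, 0.259, 0.523 and 0.613 in clone 1, and 0.619, 1.60 and 2.28 in clone 2. The 3 groups did not overlap, with clone 1 lowest. The counts behind these were 74, 171 and 74 in wild type, 5, 11 and 11 in clone 1, and 10, 33 and 48 in clone 2. The log2 fold change of ICAM1 was −3.37 in clone 1 (SE 0.52, adjusted p = 0.00153), a 10.4-fold difference. In clone 2 it was −1.68 (SE 0.46, adjusted p = 0.0434). The clone 1 call held in all 9 fits with a library left out and in all 8 other settings. The clone 2 call was lost with a fit of only the 6 libraries compared (adjusted p = 0.0704), and it held in 2 of the 9 fits with a library left out, those without wild-type replicate 3 and without clone 1 replicate 1 (adjusted p of up to 0.244 in the others). ICAM1 was higher in clone 2 by the direct test (log2 difference 1.70, SE 0.53, adjusted p = 0.0216), which no longer passed with limma-voom and the 6-library fit (up to 0.103), and without clone 1 replicate 1 or 2 or clone 2 replicate 3 (up to 0.123). ICAM1 shares 23.6% of its exon bases with genes on the opposite strand, and strand use in counting is not known, so some reads may belong to them. Its 231 neighbours within 5 Mb had medians of −0.02 and 0.17.

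SAA1 encodes serum amyloid A, an acute-phase protein, and lay on chromosome 11 (18266174 to 18269977, plus strand). SAA1 stood at 2.43, 3.72 and 2.66 CPM in wild type, 0.932, 0.761 and 0.223 in clone 1, and 0.186, 1.45 and 0.664 in clone 2. Every clone library was below every wild-type library. SAA1 fell by 2.18 in clone 1 (SE 0.61, adjusted p = 0.0468), a call lost without any 1 wild-type or clone 1 library (adjusted p of up to 0.191). The clone 2 value was −1.90 (SE 0.60, adjusted p = 0.068). It passed with the replicate block (−2.02, adjusted p = 0.0142), and with the block and the GC and length correction. DESeq2, limma-voom and the fit with no low-count filter also called SAA1 in clone 2. Its close copy SAA2, which the main fit did not test, had 26, 3 and 10 counts over the 3 libraries of wild type, clone 1 and clone 2. With no low-count filter edgeR did not call SAA2 in clone 1 (−2.82, unadjusted p = 0.0451, adjusted p = 0.328). Nor did it in clone 2 (−1.28, adjusted p = 0.665). Reads of the 2 genes may have been split, and SAA2 also overlaps a readthrough gene, so both counts are uncertain. Of the rest, BIRC3, an inhibitor of apoptosis that also acts in the pathway, stood at 4.37 to 11.0 CPM (−0.27 and −0.37), and the adaptor TRAF1 at 1.76 to 5.71 CPM (−0.15 and −0.22). PTGS2, which encodes cyclooxygenase 2, stood at 14.04 to 22.9 CPM (0.30 and −0.03). None of these 3 passed in either clone.

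**Figure D3:**
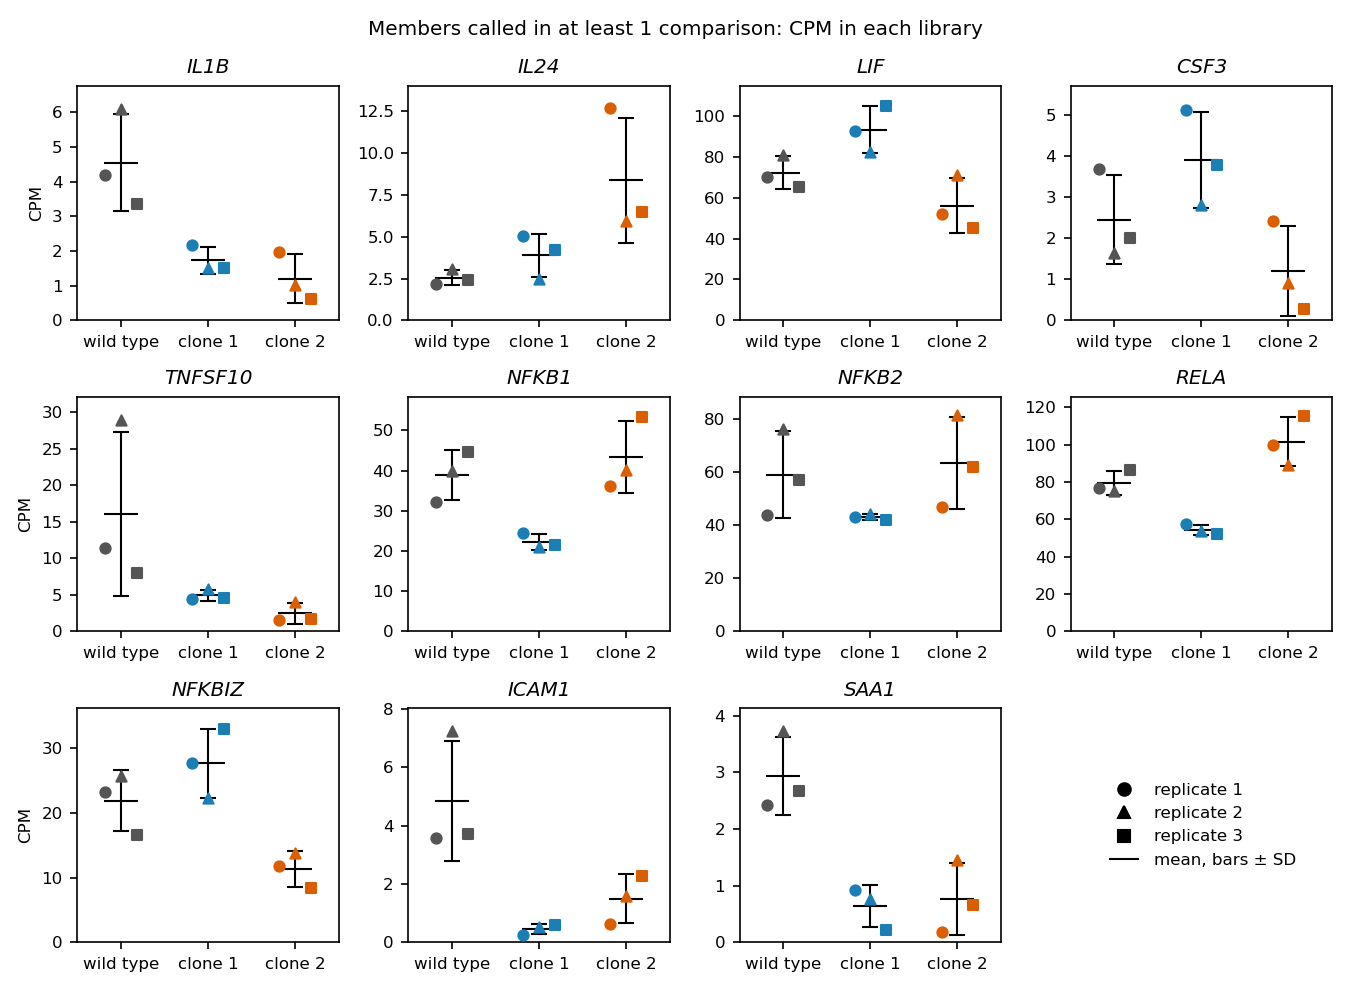
CPM in each library (y axis, from 0) of the 11 members called in at least 1 of the 3 comparisons, by group, with the replicate as the marker shape and the mean ± SD as bars. ICAM1, TNFSF10 and RELA show 3 groups that do not overlap, and NFKB1 in clone 1 and NFKBIZ in clone 2 lie below every other library.

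Set directly against clone 1, clone 2 had 8 of 31 members called (25.8%), where 33.9% of all genes were called, 19.8% higher and 14.1% lower. In this main fit the share was below that of all genes. IL24, NFKB1, NFKB2, RELA and ICAM1 were higher in clone 2, and LIF, CSF3 and NFKBIZ lower. The median of the 31 members was 0.10, against −0.01 over all genes. Among the 13 at an unadjusted p under 0.05 (41.9%, against 44.6% of all genes), 7 were higher and 6 lower. The count was 5 without clone 1 replicate 1, clone 1 replicate 3 or clone 2 replicate 3, where 26.9%, 21.7% and 20.5% of all genes were called. Without wild-type replicate 2, CXCL1, CXCL8 and TNFSF10 were called besides the 8, where 31.7% of all genes were. With no low-count filter IL18 was called as well as these, where 17.9% of all genes were. The member share was above that of all genes in both of these fits.

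Levels between genes were compared per length of the gene model, as RPKM (CPM per kilobase). In wild type LIF (18.2 ± 2.04 RPKM) and IL11 (18.1 ± 3.54) led the cytokines, with CXCL8 at 14.6 ± 7.38 and CSF2 at 14.1 ± 11.0 (SD, n = 3 each). These 4 did not differ beyond their spread. Of the subunits, RELA (14.5 ± 1.16) and NFKB2 (13.2 ± 3.64) were at the top, NFKB1 was at 6.23 ± 0.998, RELB at 2.60 ± 0.475 and REL at 0.495 ± 0.0904. IL6 was at 2.54 ± 1.40 RPKM, IL1B at 1.47 ± 0.452 and IL1A, the lowest of the tested members, at 0.458 ± 0.0394. In clone 1 LIF was at 23.5 ± 2.85 RPKM, and in clone 2 IL11 at 20.8 ± 4.17 and RELA at 18.6 ± 2.39.

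**Figure D4:**
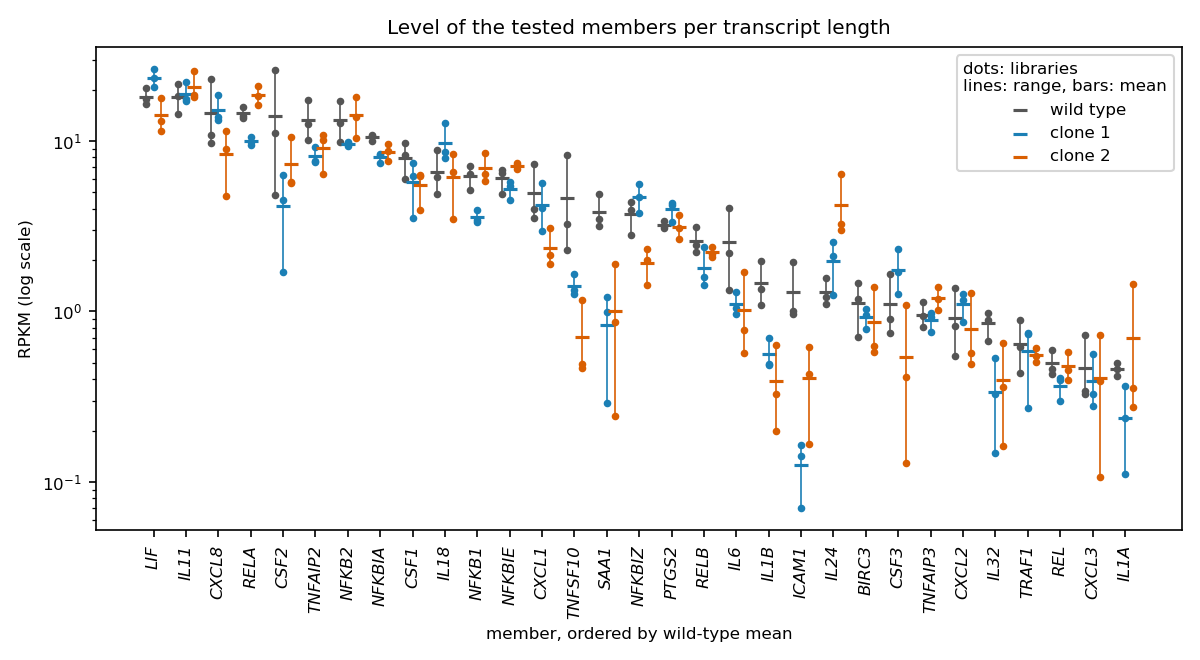
RPKM (y axis, log scale) of the 31 tested members, ordered by the wild-type mean, with dots for libraries, lines for their range and short bars for the mean of each group. LIF and IL11 lead in wild type and IL1A is last at 0.458, and the clone 1 dots of ICAM1 are the lowest of that gene.

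Other genes of the pathway were taken from lists. Of 40 tested members of a list of kinases, adaptors and ubiquitin enzymes, 1 was called in clone 1 against wild type, IRAK1 being higher by 0.58 (SE 0.14, adjusted p = 0.0281 by edgeR), and the list median was −0.15. The 2.5% called compares with 5.51% of all genes. In clone 2 against wild type TRAF3, an adaptor that restrains the noncanonical pathway, was higher by 0.59 (SE 0.14, adjusted p = 0.0267), TANK was lower (−0.82, SE 0.17, adjusted p = 0.012), and the median was 0.10. The 5.0% called compares with 5.96% of all genes. With the replicate block 5 were higher and 3 lower (20.0%, against 15.95% of all genes). IRAK1 no longer passed without wild-type replicate 1 or 2 or any 1 clone 1 library (adjusted p of up to 0.105), nor did TANK without wild-type replicate 2 (0.0805), nor TRAF3 without wild-type replicate 1 or 2, clone 1 replicate 2, or clone 2 replicate 2 or 3 (up to 0.14) or in the fit of only the 6 libraries compared (0.0704). Between the clones 10 were higher and 7 lower in clone 2 (42.5%, against 33.9% of all genes). These included TRAF3 (0.83), the inhibitor NFKBIB (0.89) and the adaptor TRAF2 (0.76) as higher and the interleukin 1 receptor kinase IRAK4 (−0.70) as lower, with adjusted p of at most 0.00218. Of 22 tested receptors of the members, 0 were called in clone 1 by edgeR, DESeq2 or limma-voom. At an unadjusted p under 0.05 by edgeR, 3 were lower there (13.6%, against 21.8% of all genes in either direction). In clone 2, 2 were called lower by edgeR. These were IL20RA, a chain of the receptor for IL24 (−1.74, SE 0.43, adjusted p = 0.0286), and TNFRSF11B, a decoy receptor for TRAIL (−1.14, SE 0.29, adjusted p = 0.0388). These 2 are 9.09% of the list, against 5.96% of all genes called and 2.75% lower. With the replicate block 4 receptors were lower (18.2%, against 15.95% of all genes called). IL20RA no longer passed when wild-type replicate 2 or clone 2 replicate 3 was dropped (adjusted p at most 0.174), nor did TNFRSF11B without these, wild-type replicate 1 or clone 2 replicate 1 (up to 0.217). IL20RA also missed the threshold in the 6-library fit (0.0551), and TNFRSF11B with the GC and length correction (0.0510). Between the clones the TRAIL receptors TNFRSF10B (−0.54, adjusted p = 0.00531) and TNFRSF10D (−0.67, adjusted p = 0.0194) were lower in clone 2, the second not without clone 1 replicate 2 or 3 (up to 0.0872).

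Of 21 further tested NF-kappaB targets, 3 were lower in clone 1 against wild type and 0 higher (14.3%, against 5.51% of all genes called; median −0.12). In clone 2, 1 was higher and 2 were lower (14.3%, against 5.96%; median −0.19). With the replicate block these were 3 and 5 (38.1%, against 15.95%). Between the clones 4 were higher and 3 lower in clone 2, and this share of 33.3% was near the 33.9% of all genes. BCL2L1, which encodes the survival protein BCL-XL, was lower in clone 1 (−0.60, SE 0.16, adjusted p = 0.0444) and higher in clone 2 (0.59, SE 0.16, adjusted p = 0.0452), and the clones differed by 1.19 (adjusted p = 0.000136). That difference held in all 9 fits with a library left out. The calls of BCL2L1 against wild type held in 3 of 9 such fits in clone 1 and 2 of 9 in clone 2 (adjusted p of up to 0.258 and 0.212), and both were lost with RLE size factors, the first also with the GC and length correction (0.0734) and the second in the 6-library fit (0.1). IL7R, the interleukin 7 receptor chain, was at 52.7 CPM in wild type, 21.7 in clone 1 (log2 fold change −1.28, adjusted p = 0.0227) and 17.3 in clone 2 (−1.61, adjusted p = 0.00764). Its clone 2 call held in all 9 such fits, and that of clone 1 was lost without wild-type replicate 3 or clone 1 replicate 2 or 3 (adjusted p of up to 0.101). SOD2, the mitochondrial superoxide dismutase, was higher in clone 2 than in clone 1 (1.15, adjusted p = 0.000251), and VEGFA, an angiogenic factor, was lower (−1.16, adjusted p = 0.00109), all by edgeR.

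The list of the JAK-STAT3 arm, which acts downstream of IL6, IL11 and LIF, and of AP-1 partners had 13 members, all tested. In clone 1 against wild type 5 were lower and 0 higher, with a median of −0.45. These are 38.5% of the list, against 5.51% of all genes called and 4.1% lower. These were STAT3, JAK1, PIM1, CEBPB and CEBPD, the last 2 named after their values were seen. The count was 0 without wild-type replicate 3, clone 1 replicate 2 or clone 1 replicate 3, where 1.57%, 1.88% and 1.15% of all genes were called. It was 1, PIM1, without wild-type replicate 2 or clone 1 replicate 1 (2.48% and 2.19%). It was 3 without clone 2 replicate 2 or with the GC and length correction (4.54% and 5.37%). In clone 2 against wild type 1 was higher and 1 lower, with a median of 0.10 (15.4%, against 5.96% of all genes). Neither call held without wild-type replicate 2. With the replicate block 5 were higher and 1 lower (46.2%, against 15.95%). Between the clones 6 were higher in clone 2 and 0 lower (46.2%, against 33.9% of all genes called and 19.8% higher). STAT3, the transcription factor activated by gp130, was at 107 CPM in wild type, 72.6 in clone 1 (−0.55, SE 0.15, adjusted p = 0.044) and 141 in clone 2, where it was higher than in clone 1 (0.95, adjusted p = 0.000349). JAK1, the kinase bound to gp130, was at 108, 69.3 and 142 CPM in the same order, with −0.64 in clone 1 against wild type (SE 0.17, adjusted p = 0.0423) and 1.03 between the clones (adjusted p = 0.000482). PIM1, a kinase and STAT3 target, was lower in clone 1 (−0.69, SE 0.14, adjusted p = 0.013). JUN, a component of AP-1, was higher in clone 2 than in wild type (0.78, SE 0.15, adjusted p = 0.00842) and than in clone 1 (0.87, adjusted p = 0.00064). The calls between the clones of STAT3, JAK1 and JUN held in all 9 fits with a library left out. Those of STAT3 and JAK1 against wild type held in 3 of 9. They ended when wild-type replicate 2 or 3, a clone 1 library, or clone 2 replicate 2 was dropped (adjusted p at most 0.266), and with the GC and length correction (at most 0.119), and that of STAT3 also with RLE size factors. PIM1 no longer passed in clone 1 when wild-type replicate 3 or clone 1 replicate 2 or 3 was dropped (at most 0.0902), nor did JUN against wild type without wild-type replicate 2 (0.0667).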

How the data were processed

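RNA-seq counts were read for 9 libraries, 3 per group. The deposited values are raw counts per gene, in 2 tables that hold the same 3 wild-type columns, which entered once. The build GRCh38 and the tools STAR, featureCounts, Subread and DESeq2 appear in the submitters' processing notes, without versions or roles. Strand setting and annotation release: not given in the sources used here.

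Differences were tested with edgeR 4.0.16 (R 4.3.3): TMM scaling, filterByExpr per group at a minimum count of 10, leaving 16921 genes, and the quasi-likelihood fit with robust set, over 9 libraries in 3 groups (6 residual degrees of freedom, biological coefficient of variation 20.3%). Tests were two-sided, and p-values were adjusted by Benjamini-Hochberg over all tested genes and called under 0.05. The SE is the log2 fold change over the square root of F. CPM uses TMM-scaled library sizes, and RPKM divides it by the deposited gene length. Values are mean ± SD where so marked. Without molecular identifiers, reads are not independent molecules, and the limit from 3 counts covers counting error only. The fits were tested on simulated data.

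The members and gene lists were chosen with earlier results of these data known. Fully described members are those called in any of the 3 comparisons, and up to 4 genes per list were named by smallest adjusted p among those called, in any comparison. IRAK1 and TANK in the signalling list, CEBPB, CEBPD, and the marker genes CD14 and LUM, were named after their values were seen. Promoter windows came from RefSeq. Promoters were to be shown for members called in both clones (ICAM1 and TNFSF10), and the other stretches were added after the kappaB search.

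Alternatives were RLE size factors, no low-count filter, DESeq2 1.42.0, limma-voom (limma 3.58.1), only the 6 libraries compared, the replicate number as a block, a GC and length correction (GC known for 87.3% of tested genes, from GENCODE transcripts) without and with that block, and leaving out each library. Replicate numbers are shared by the groups, and the labels do not say what they mark. For wild type and clone 2, same-numbered libraries had deviations from their group means that correlated at 0.223, 0.269 and 0.246. Results with the block are therefore given beside those of the main fit, mainly for clone 2. This rests on a hint from the data and not on the design. The main fit had no block, and the block was fitted over all 9 libraries, so it also took in clone 1.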

Additional observations from a re-analysis of the deposited data

Results flagged for a closer look

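The test of the difference between clone 2 and clone 1 passed for 8 members, so that the 2 knockout lines differed in these transcripts. Each clone is 1 line, and the cause of the differences was not tested. NFKB1 (log2 difference 0.96), RELA (0.90), NFKB2 (0.55), IL24 (1.10) and ICAM1 (1.70) were higher in clone 2, and LIF (−0.73), CSF3 (−1.73) and NFKBIZ (−1.29) were lower. RELA, NFKB1, LIF and NFKBIZ kept the call in all 9 fits with a library left out, and NFKB2, IL24, ICAM1 and CSF3 did not. Over all tested genes 33.9% were called in this comparison by the main fit, a larger share than the 25.8% of members. Without wild-type replicate 2 or with no low-count filter the member share was the larger. The mitochondrial share of counts differed between the same libraries, at 2.28 to 4.90% in clone 1 and 0.843 to 1.79% in clone 2, and its part in these differences was not tested.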

How the results depend on the processing

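Members called in clone 1 against wild type numbered 5, and 8 with no low-count filter, 11 with the replicate block, 12 with the block and the GC and length correction, and 1 to 6 with a library left out. In clone 2 against wild type they numbered 5, and 11 with no filter, 8 with DESeq2, 10 with the block, 10 with the block and the correction, and 1 to 7 with a library left out. Between the clones they numbered 8, and 13 with the block and 5 to 11 with a library left out. The median member was −0.39 in clone 1 (−0.32 with the block and the correction, −0.52 to −0.21 with a library left out) and −0.28 in clone 2 (−0.59 to −0.15). Same-numbered libraries of clone 1 and wild type had deviations that correlated at 0.245, 0.0825 and −0.0965. Those of clone 1 and clone 2 correlated at 0.219, −0.0215 and 0.0124. Whether the libraries of clone 1 were paired with the others cannot be told from these values. Over all genes, calls in clone 1 went from 933 to 1512 with no filter, 1479 with DESeq2, 2322 with the block, 2038 with the block and the correction, and 200 to 1301 with a library left out. In clone 2 they went from 1008 to 1663, 1818, 2699 and 3465 in the same order, 1722 with the correction, 416 with 6 libraries, and 237 to 1584 with a library left out. Between the clones 5733 became 7101 with the block and 3639 to 5782 with a library left out. The fits differed in genes tested, with 31961 under no filter and 14767 with the correction. As shares of these, clone 1 went from 5.51% to 4.73% with no filter, 8.74% with DESeq2, 13.7% with the block and 13.8% with both. Clone 2 went from 5.96% to 5.20%, 10.7%, 15.95% and 23.5% in the same order. It was at 11.7% with the correction and 2.61% with 6 libraries. Between the clones 33.9% became 42.0% with the block. The share of calls that were higher went with the correction from 25.6 to 42.7% in clone 1 and from 53.9 to 75.1% in clone 2, where the median of all genes moved from 0.00 to 0.13. With 6 libraries it was 39.2 and 38.5%.

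The sign of 24 of 93 member fold changes changed in some setting, and 0 of these had been called by edgeR. With the correction, without and with the block, values in clone 1 were −0.16 and −0.090 for CXCL8 and 0.0067 and 0.016 for TNFAIP3. In clone 2 they were 0.13 and 0.094 for IL18, 0.029 and 0.019 for REL, and 0.19 and 0.18 for PTGS2. Between the clones they were 0.14 and 0.073 for BIRC3, and IL6 was at 0.11 without the block. With limma-voom and with the block, CXCL3 was at −0.30 and −0.10 and TRAF1 at 0.067 and 0.024 between the clones. With a library left out, clone 1 values ran from −0.060 to 0.20 for IL11, −0.14 to 0.57 for CXCL8, −0.51 to 0.18 for CXCL1, −0.00020 to 0.69 for CXCL2, −0.63 to 0.23 for CXCL3, −0.22 to 0.054 for TNFAIP3 and −0.37 to 0.19 for TRAF1. Clone 2 values ran from −0.51 to 0.93 for IL1A, −0.41 to 0.19 for IL18, −0.78 to 0.18 for CXCL2, −0.88 to 0.24 for CXCL3, −0.031 to 0.29 for NFKB1, −0.13 to 0.31 for NFKB2, −0.23 to 0.089 for REL, −0.43 to 0.063 for TRAF1 and −0.18 to 0.068 for PTGS2. Between the clones they ran from −0.73 to 0.17 for IL6, −0.043 to 0.26 for IL11, −0.36 to 0.71 for IL32, −0.64 to 0.50 for CXCL3, −0.31 to 0.14 for CSF1, −0.66 to 0.11 for BIRC3, −0.40 to 0.13 for TRAF1 and −0.57 to 0.71 for SAA1. The cause of these changes was not tested. The low counts of ICAM1 in clone 1, of SAA1 and of the untested members limit the precision of their values.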
